A study of Mus musculus with 2 samples.

Results

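The genes examined here encode the NF-kappaB transcription factors and the proteins that hold them in check: the subunit genes Rela, Rel, Relb, Nfkb1 and Nfkb2, the inhibitor genes Nfkbia, Nfkbib and Nfkbie, and Tnfaip3. They were chosen by name, 9 of the 21887 coding genes in the annotation, and every open site listed in each gene and within 20 kb around it was taken. The sites come from ATAC-seq, in which the transposase Tn5 inserts adapters into accessible DNA, on AB22 cells, a mouse malignant mesothelioma line. One library came from cells with a control short hairpin RNA (shCTRL) and 1 from cells with a hairpin against Hmgb1 (shHMGB1), whose product is an abundant DNA-bending chromatin protein. Both lines carried a pTRIPZ lentiviral construct, added at a multiplicity of infection of 20 and selected with puromycin at 4 µg/mL, and both received 1 µM doxycycline to switch the hairpin on, 7 to 10 days before use. They were grown at 37 °C with 5% oxygen, as labelled. The label for irradiation dose holds a dash. With 1 library per group there is no replicate spread, no test between the lines was made, and all intervals below cover counting error only.

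NF-kappaB proteins bind DNA as dimers. In resting cells the inhibitors keep most dimers in the cytoplasm, and signals from cytokine or Toll-like receptors lead to destruction of the inhibitors and entry of the dimers into the nucleus. Rela, Rel and Relb carry domains that activate transcription, whereas Nfkb1 and Nfkb2 encode precursors that are processed to DNA-binding subunits and that act as inhibitors before processing. The genes of several inhibitors and of Tnfaip3, a ubiquitin-editing enzyme that dampens the pathway, are themselves NF-kappaB targets, which closes a feedback loop. HMGB1 outside the cell is known to act on receptors that feed into this pathway.

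Because that loop runs through the promoters of these genes, their sequences were read first. RefSeq promoters (GRCm38.p6, 250 bases before to 50 after a start) were found for 7 of the 9 genes, all except Nfkb1 and Relb, with 10 entries in all. The NF-kappaB consensus motif, 10 bases long and searched on both strands, was present in the promoters of 5 of these 7 genes, beside 5.53% of the 17492 coding genes with a promoter entry. The 160 bases before the first listed start are printed for these 5 genes and for Rela, which had no match, so that the motif can be set beside the open sites. They run 5′ to 3′ on the strand of the gene, with capitals marking matches to the consensus.
Nfkbia: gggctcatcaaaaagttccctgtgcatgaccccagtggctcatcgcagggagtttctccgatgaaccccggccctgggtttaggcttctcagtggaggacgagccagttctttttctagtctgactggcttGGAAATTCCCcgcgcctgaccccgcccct
Nfkb2: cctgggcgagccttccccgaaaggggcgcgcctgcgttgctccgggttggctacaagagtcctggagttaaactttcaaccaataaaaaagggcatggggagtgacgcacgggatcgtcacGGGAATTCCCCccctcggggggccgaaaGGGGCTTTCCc
Tnfaip3: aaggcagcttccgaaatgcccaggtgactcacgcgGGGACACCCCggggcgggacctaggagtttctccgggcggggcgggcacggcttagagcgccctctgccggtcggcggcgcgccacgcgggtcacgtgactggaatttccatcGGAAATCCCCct
Rel: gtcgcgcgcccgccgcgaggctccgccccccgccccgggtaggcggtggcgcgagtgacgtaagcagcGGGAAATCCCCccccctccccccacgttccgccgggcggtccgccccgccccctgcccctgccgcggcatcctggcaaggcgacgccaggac
Nfkbie: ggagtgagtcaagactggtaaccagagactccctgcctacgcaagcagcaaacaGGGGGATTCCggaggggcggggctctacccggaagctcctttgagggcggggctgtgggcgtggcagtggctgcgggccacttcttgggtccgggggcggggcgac
Rela: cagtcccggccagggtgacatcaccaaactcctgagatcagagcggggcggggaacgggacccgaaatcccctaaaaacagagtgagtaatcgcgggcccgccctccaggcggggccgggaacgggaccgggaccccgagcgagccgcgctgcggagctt

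These stretches lie at chr12:55492648-55492807 (minus strand) for Nfkbia, chr19:46304577-46304736 (plus) for Nfkb2, chr10:19015411-19015570 (minus) for Tnfaip3, chr11:23770970-23771129 (minus) for Rel, chr17:45555540-45555699 (plus) for Nfkbie and chr19:5637381-5637540 (plus) for Rela. Counted from the start, with -1 the last base before it, the match began at -29 in Nfkbia and at -106 in Nfkbie. In Rel a run of overlapping matches on both strands began at -92. Nfkb2 had such a run from -39 and a further match at -11, and Tnfaip3 had matches at -125 and -12. Nfkb2 also carried matches near its other listed starts, centred 727 and 973 bp after the first. A looser form of the consensus found the same 5 genes, beside 10.5% of coding genes. The AP-1 motif TGANTCA was found in 3 of the 7 genes, beside 8.12%: at -136 in Tnfaip3, at -156 in Nfkbie and near the second start of Nfkb2, in no case overlapping an NF-kappaB match. The GC box GGGCGG, also searched on both strands, was found in 6 of the 7, all but Nfkbib, beside 49.2%, and overlapped none of the NF-kappaB matches. A match says that the letters are present, not that a protein was bound.

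The open sites are given as summits, the local maxima of coverage within a peak, each with its pileup, the number of fragments covering it. The expected pileup recovered from the lists was 2.79 fragments in shCTRL and 1.68 in shHMGB1, and the lowest listed summits held 10 and 7, so the shHMGB1 list reaches to lower pileups. The total number of reads is not known from the lists. Of 12 mesothelial marker genes, 2 (Msln and Pdpn) had a summit within 1 kb of an annotated end in both libraries. Calb2 (13) and Wt1 (12) were open this way only in shCTRL and Lrrn4 (9) only in shHMGB1, and 7, among them Upk3b, Krt8 and Krt18, had none. Of 9 leukocyte markers 1 (Spi1, pileups 14 and 10) had one in both, Csf1r (18) and Cd68 (14) had one in shCTRL alone, Lyz2 (11) had one in shHMGB1 alone, and the other 5, Ptprc among them, had none. The silenced gene Hmgb1 held 75 and 83 fragments, at a log2 ratio of 0.35 (-0.11 to 0.82) on the scale explained below. A hairpin acts on RNA, so this value does not check the labels.

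All 9 genes were open in both lines, as were 52.0% of all coding genes, counted as a summit within 1 kb of an annotated gene end in both libraries. A further 5.79% of coding genes were open in shCTRL alone and 1.73% in shHMGB1 alone, and 0 members were. Of the 9, Rel was the most open at its start in both libraries, while the lowest was Rela in shCTRL and Nfkbie in shHMGB1. For each gene the highest summit within 1 kb of its first RefSeq start was taken. For Nfkb1 and Relb, which had no promoter entry, the higher-coordinate end of the annotated gene was used instead, as the gene table gives no strand. The median coding gene with such a summit held 42 fragments in shCTRL (9975 genes) and 38 in shHMGB1 (9278 genes).

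**Figure D1:**
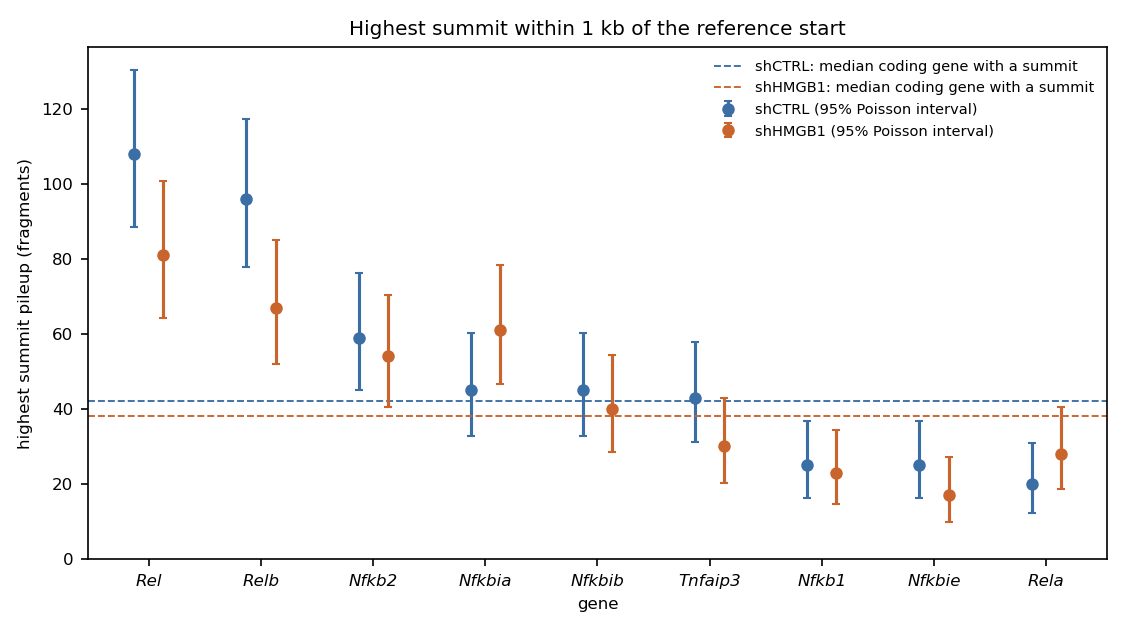
Highest summit pileup, in fragments, within 1 kb of the reference start of each gene (vertical axis) in shCTRL (blue) and shHMGB1 (orange). Bars are 95% Poisson intervals and dashed lines the median coding gene with a summit, 42 and 38 fragments. Rel and Relb stand highest above these lines in both libraries, at 108 and 81 and at 96 and 67. Nfkb2, Nfkbia and Nfkbib also stand above them, the intervals of Nfkbib including the lines. Nfkb1, Nfkbie and Rela lie below them, and Tnfaip3 lies above in shCTRL and below in shHMGB1.

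Among the activating subunits, Rel (gene 19696, chr11:23736847-23770969), best known from lymphoid cells, held 108 fragments in shCTRL (exact 95% limits 88.6 and 130.4) and 81 in shHMGB1 (64.3 and 100.7), at percentiles 90.8 and 82.8 among the coding genes with a summit there. Relb (gene 19698, chr7:19606217-19629438), the partner of the processed Nfkb2 product in the non-canonical pathway, held 96 (77.8 to 117.2) and 67 (51.9 to 85.1), at percentiles 87.5 and 76.2 of the same genes. Rela (gene 19697, chr19:5637442-5648134), the activating subunit of the most common dimer, held 20 (12.2 to 30.9) and 28 (18.6 to 40.5), at percentiles 19.3 and 36.4 of them. Genes with no summit near the start are not in this ranking. The subunit genes thus differed widely among themselves.

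Of the precursor genes, Nfkb2 (gene 18034, chr19:46300994-46312400) held 59 (44.9 to 76.1) and 54 (40.6 to 70.5) fragments. Nfkb1 (gene 18033, chr3:135584655-135691969) held 25 (16.2 to 36.9) and 23 (14.6 to 34.5) near the annotated end used as its reference point. This was less than at sites farther inside the gene described below. The inhibitor gene Nfkbia (gene 18035, chr12:55489409-55492647), whose product is resynthesised after each pulse of NF-kappaB activity, held 45 (32.8 to 60.2) and 61 (46.7 to 78.4). Nfkbib (gene 18036, chr7:28758251-28766644), a further inhibitor gene, held 45 (32.8 to 60.2) and 40 (28.6 to 54.5), at a site that also lies within 1 kb of the end of Sirt2, so that the reads cannot be assigned to 1 of these genes. Nfkbie (gene 18037, chr17:45555700-45563169), another of the inhibitor genes, held 25 (16.2 to 36.9) and 17 (9.9 to 27.2). Tnfaip3 (gene 21929, chr10:19000910-19015410) held 43 (31.1 to 57.9) and 30 (20.2 to 42.8).

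Ordered by height, few neighbours were separated beyond counting error. In shCTRL the order was Rel, Relb, Nfkb2, Nfkbia and Nfkbib (equal), Tnfaip3, Nfkb1 and Nfkbie (equal) and Rela. Only the steps from Relb to Nfkb2 (log2 0.70, 0.22 to 1.20) and from Tnfaip3 to Nfkb1 (0.78, 0.04 to 1.56) had intervals above 0. In shHMGB1 the order was Rel, Relb, Nfkbia, Nfkb2, Nfkbib, Tnfaip3, Rela, Nfkb1 and Nfkbie, and no step between neighbours had an interval above 0. Summit height is a measure of accessibility and is not a level of RNA.

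Around the starts the summits formed clusters, most of them with a counterpart in the other library. Within 1 kb of the reference points lay 59 shCTRL and 50 shHMGB1 summits, from 3 and 3 at Nfkbib to 9 and 7 at Relb. Of these 44 pairs were matched, meaning that they were each other's nearest summit within 150 bp, and the matched positions lay at most 62 bp apart. The peak over the start of Rel ran for 1194 bp in shCTRL and 1689 bp in shHMGB1, with matched shCTRL summits at positions from -618 to 181 bp relative to the start. Over Nfkbia it ran for 1221 and 1219 bp, and over Tnfaip3 for 677 and 463 bp. Neighbouring summits can share fragments, and so they are not independent measurements.

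**Figure D2:**
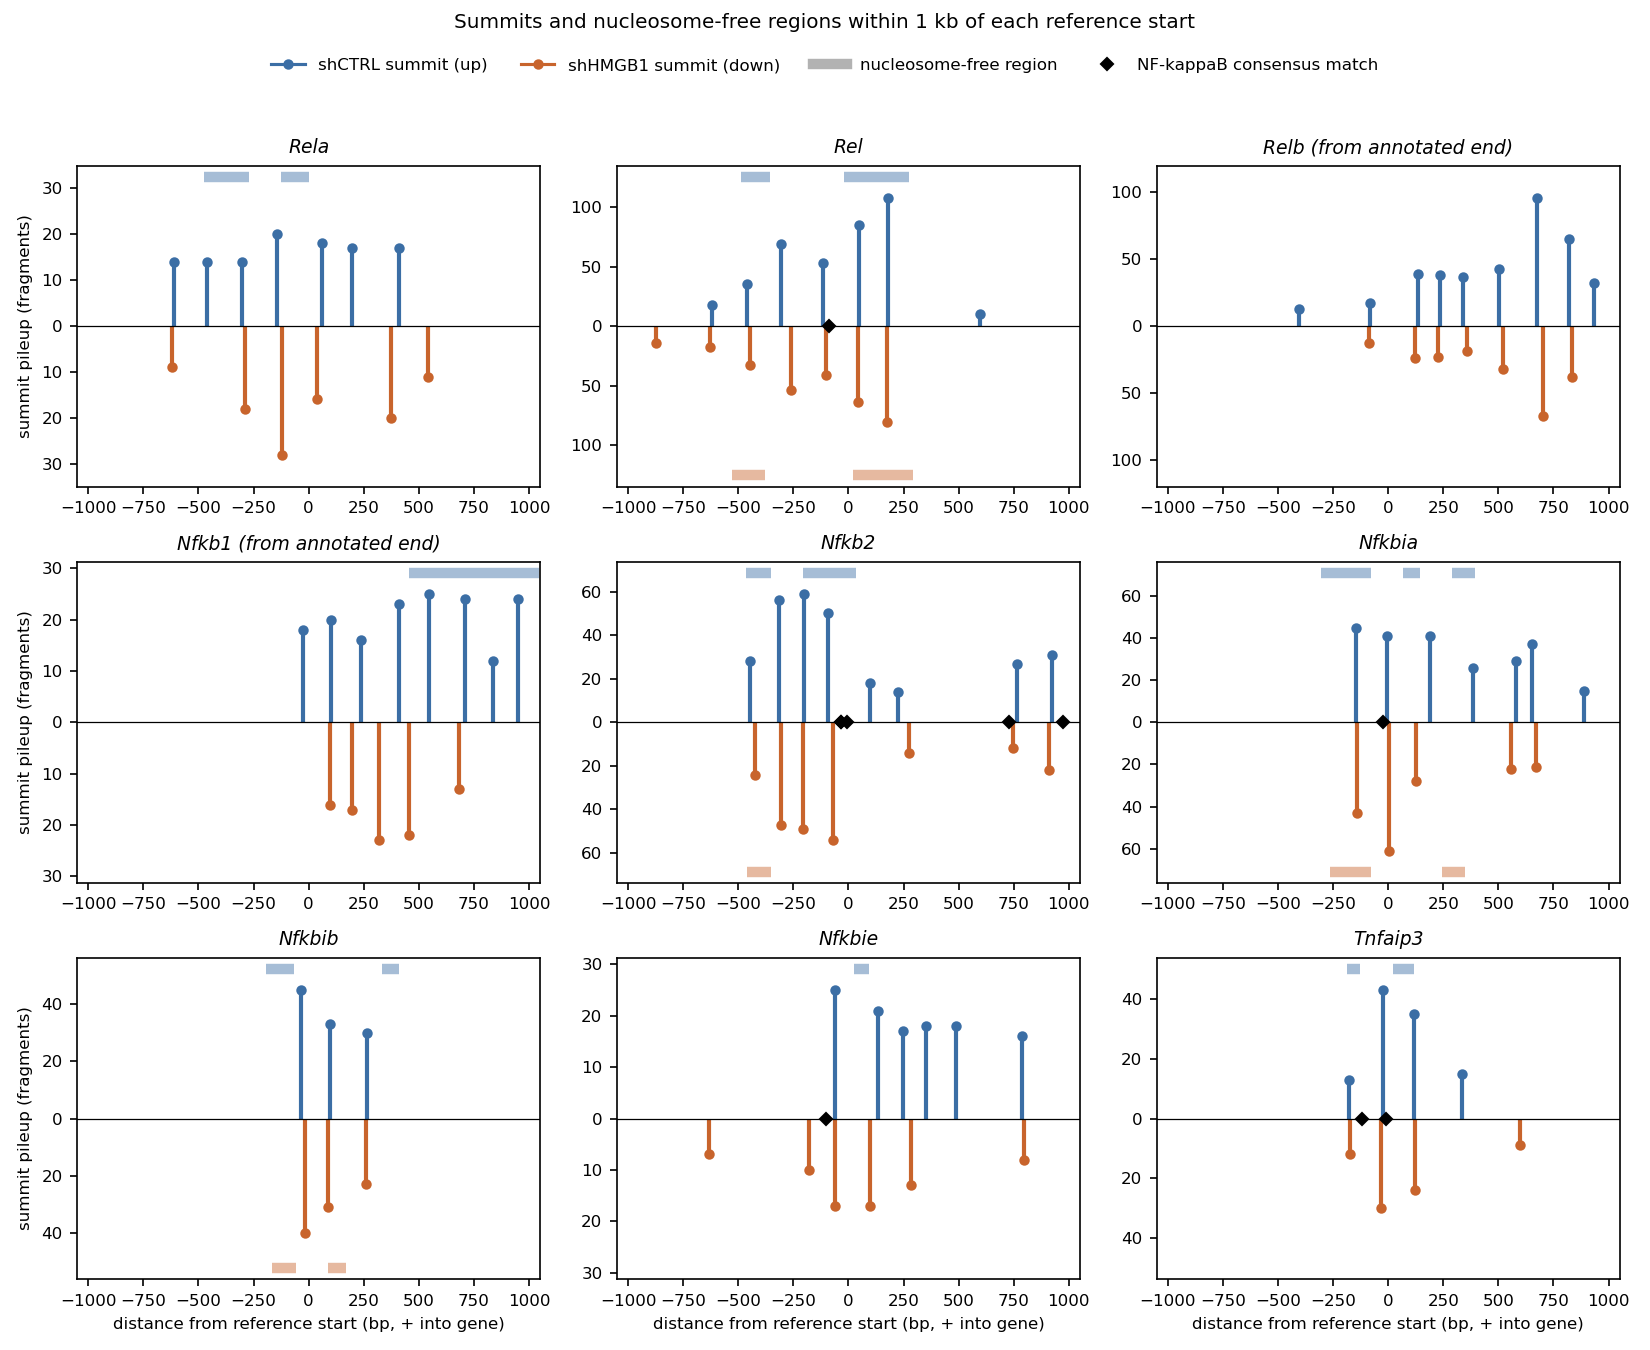
Summit pileup in fragments (vertical axis, shCTRL up, shHMGB1 down) against distance in bp from the reference start, positive into the gene, with nucleosome-free regions as bars at the outer edges and NF-kappaB consensus matches as black diamonds on the zero line. At Nfkbia the match lies 20 and 27 bp from the nearest summits, which hold 41 and 61 fragments. Rela, Nfkb1, Nfkbie and Tnfaip3 have nucleosome-free bars in shCTRL and none in shHMGB1.

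The NF-kappaB matches printed above lay inside listed peaks of both libraries. At Nfkbia the centre of the match was 20 bp from a shCTRL summit of 41 fragments and 27 bp from a shHMGB1 summit of 61. At Tnfaip3 the match nearest the start lay 16 and 26 bp from summits of 43 and 30 fragments, the highest of that gene. In Nfkbie the distances were 38 and 39 bp, to summits of 25 and 17. The first match of the run in Rel lay 27 and 15 bp from summits of 53 and 41, which were not the highest of that cluster. At Nfkb2 the first match of the run was 56 and 36 bp from summits of 50 and 54. The centre of its match 973 bp after the first start lay inside a shCTRL peak and just past the edge of a shHMGB1 peak. Summits lie densely around starts. A GC box lay nearer to a summit than the NF-kappaB match at Nfkbia (1 and 8 bp) and at Nfkbie (3 and 2 bp). At Tnfaip3 the nearest GC box lay farther away (59 and 49 bp), and at Rel it was nearer in shCTRL alone (13 and 25 bp). Distances for sequence outside the searched motifs were not computed.

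To compare the lines, the log2 ratio of pileups, shHMGB1 over shCTRL, was taken at the highest matched summit within 1 kb of either annotated end. It was set relative to the median of the 11145 coding genes with such a summit, which itself stood at -0.21. A value was had for 8 of the 9 members, since the matched summits of Nfkb2 lay deeper in its annotated span. Of these 8, 2 were over 1.5-fold higher in shHMGB1 (Nfkbia and Rela), beside 4.59% of coding genes, and 0 were over 1.5-fold lower, beside 9.64%. The median over the 8 was -0.05. Taken within 1 kb of the first RefSeq start instead, where 7 members had a value, the same 2 genes were higher, beside 4.26% of coding genes, and 0 were lower, beside 9.46%. With counting intervals, only the value of Nfkbia lay apart from the median gene. The share of coding genes with such an interval is not given here.

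**Figure D3:**
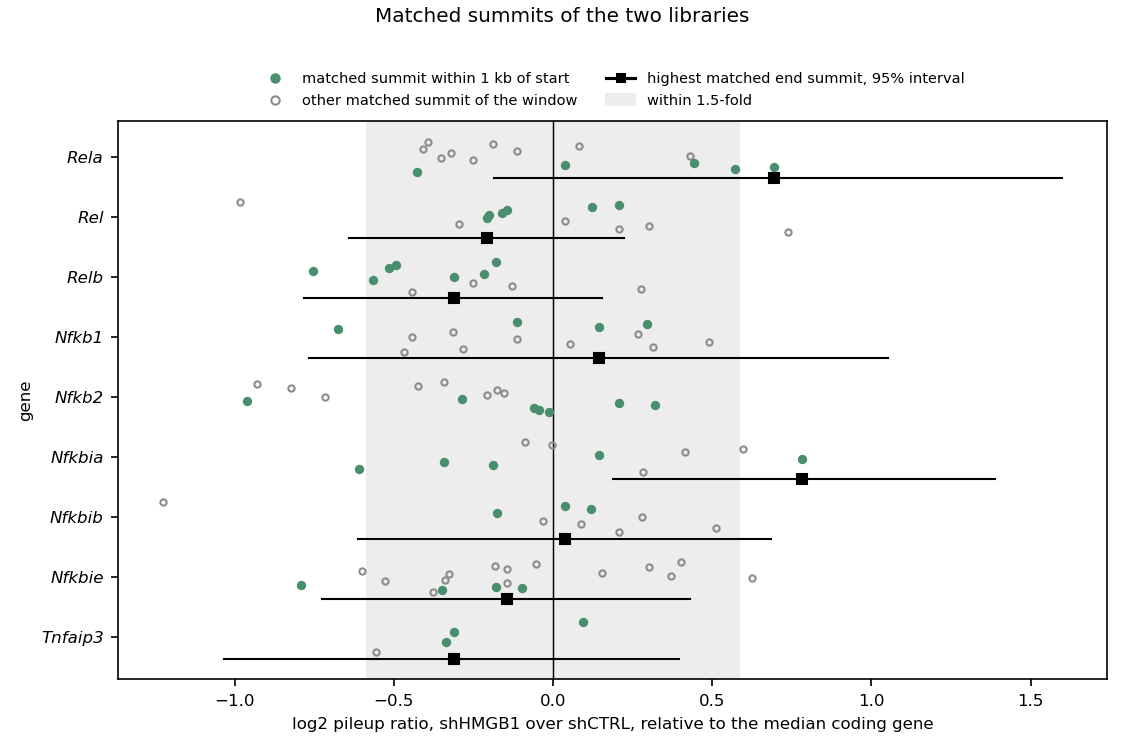
Log2 pileup ratio, shHMGB1 over shCTRL, relative to the median coding gene (horizontal axis) for each gene (vertical axis). Green points are matched summits within 1 kb of the reference start, open grey points other matched summits of the window, black squares the highest matched end summit with its 95% interval, and the grey band the range within 1.5-fold. The black interval of Nfkbia, 0.19 to 1.39, lies above 0, while all 7 green points of Relb lie below 0. So do all 4 green points of Nfkbie, and 29 of the 44 over all 9 genes. The share of such points below 0 over all coding genes is not given here.

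At Nfkbia 41 fragments (29.4 to 55.6) in shCTRL faced 61 (46.7 to 78.4) in shHMGB1 at the start itself, at positions -4 and 3. The log2 ratio was 0.78 (95% interval 0.19 to 1.39), and relative to genes of the same height 0.76 (0.16 to 1.37). The other matched summits within 1 kb did not share this value. At positions -145 and -141 the pileups were 45 and 43 (0.14, -0.49 to 0.78). The 3 other matched summits within 1 kb lay inside the gene and stood below the median gene: 41 and 28 fragments 0.2 kb in (-0.34, -1.09 to 0.39), 29 and 22 at 0.6 kb (-0.19, -1.06 to 0.66), and 37 and 21 at 0.7 kb (-0.61, -1.46 to 0.20). Over the 5 summits the median was -0.19, below the median gene.

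At Rela 20 and 28 fragments, at positions -145 and -119, gave 0.69, with an interval of -0.19 to 1.60 that included no difference. Between the highest end summits of each library, matched or not, it was 0.22 and within 1.5-fold. That value compares different sites, 28 fragments beyond the far end in shCTRL and 28 at the start in shHMGB1. Of the 5 matched summits near the start 4 stood above the median gene, and beyond the other end of the gene, 11.3 kb from the start, 28 and 19 fragments gave -0.35 (-1.27 to 0.54). The neighbourhood of Rela stood low: within 500 kb on either side the matched summits had a median of -0.38 (225 summits), and relative to them the start of Rela stood at 1.07. Those 225 were all matched summits there outside the Rela window, of any height and at starts or not. The value of 1.07 thus compares unlike sites, and no interval is given for it.

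The most open subunit genes stood below the median gene within counting error, and above 0 when set relative to the expected pileups (Rel 0.31, Relb 0.21). Relative to genes of the same height Rel stood at -0.34 (-0.78 to 0.09) and Relb at -0.45 (-0.92 to 0.02). Rel stood at -0.21 (-0.64 to 0.22) for 108 and 81 fragments, with 4 of its 6 matched start summits below the median gene. At Relb 96 and 67 fragments gave -0.31 (-0.78 to 0.15). All 7 of its matched start summits stood below the median gene, from -0.18 to -0.75, the lowest with 37 and 19 fragments (-1.63 to 0.08). None of these intervals lay apart from 0, and neighbouring summits can share fragments. Over all 9 genes 29 of the 44 matched start summits stood below the median gene, among them all 4 of Nfkbie, and the median was -0.17. The median gene is set by the highest matched end summit of each gene, whereas these counts take all matched start summits. The share of such summits below it over all coding genes is not given here, so the count is not read as particular to these genes. The matched summits within 500 kb of Relb had a median of -0.07.

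For Nfkb1 the ratio was 0.14 (-0.77 to 1.05) at 23 and 22 fragments. For Nfkb2 the highest matched pair at the first start, 59 and 49 fragments, gave -0.06 (-0.64 to 0.51), and the summit next to the consensus run, 50 and 54, gave 0.32 (-0.26 to 0.90). Before the second start of Nfkb2, 0.8 kb after the first, 27 and 12 fragments gave -0.96 (-2.08 to 0.07). Nfkbib stood at 0.04 (-0.61 to 0.69). The rule picked for Nfkbie a summit beyond its far end, 60 and 47 fragments (-0.14, -0.73 to 0.43), that also lies at the end of Slc35b2. At its own start 25 and 17 fragments gave -0.35 (-1.33 to 0.60). Tnfaip3 stood at -0.31 (-1.03 to 0.40).

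Away from the starts, each window had sites of its own. The 9 windows together held 185 summits in shCTRL and 142 in shHMGB1. Within 1 kb of an end of another coding gene lay 47 and 39 of them, elsewhere in the gene itself 25 and 23, and elsewhere outside it 54 and 30. Exons and introns were not assigned, since the gene table used gives outer ends only.

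**Figure D4:**
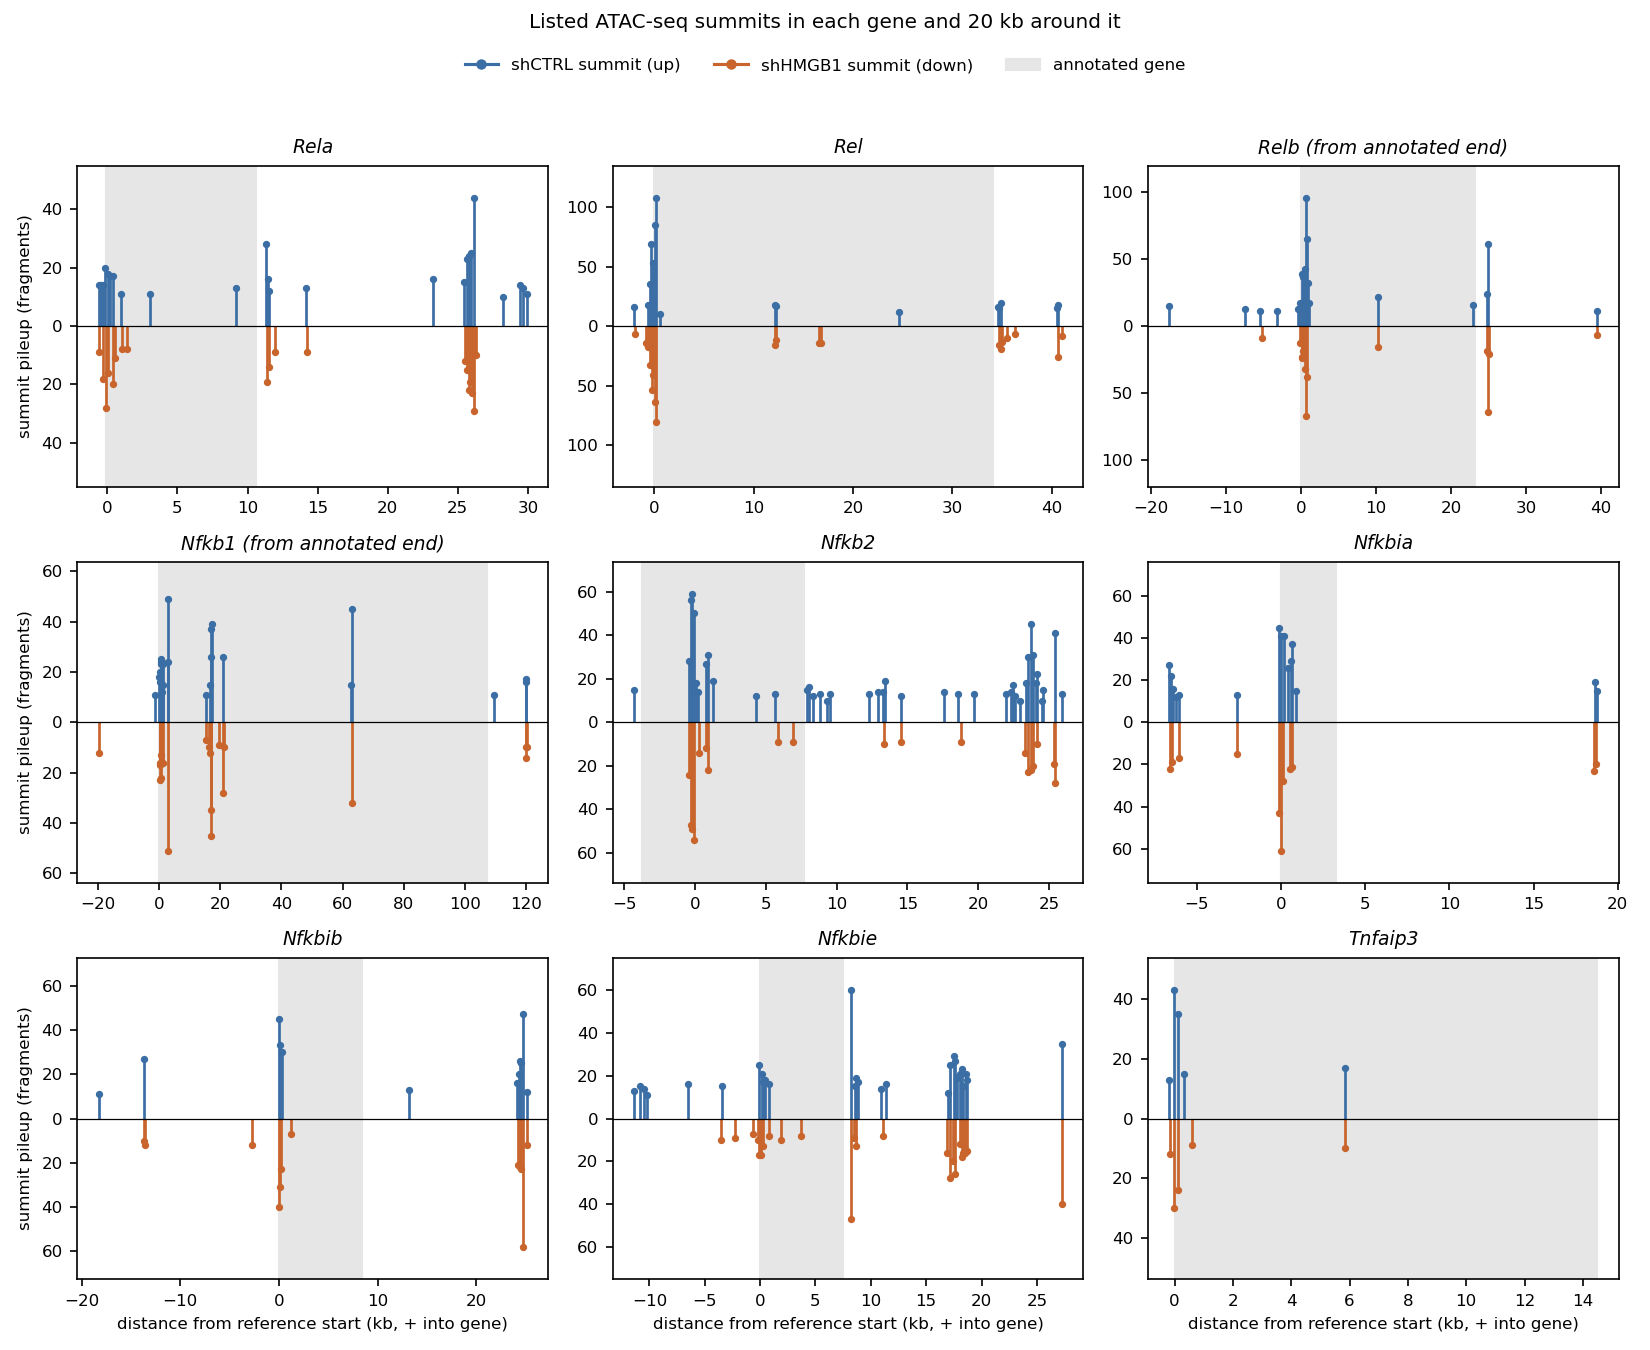
Pileup in fragments of every listed summit (vertical axis, shCTRL up, shHMGB1 down) in each gene and 20 kb around it, against distance in kb from the reference start, positive into the gene, with the annotated gene shaded. Nfkb1 shows sites inside the gene of up to 49 and 51 fragments, and the window of Nfkb2 holds 41 shCTRL and 19 shHMGB1 summits.

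Nfkb1, which spans 107315 bp, had the most sites inside the gene. The strongest lay 2.8 kb in, with 49 and 51 fragments (0.27, -0.33 to 0.86), more than near the annotated end used as the reference point. A further site 63.1 kb in held 45 and 32 (-0.28, -0.98 to 0.40). A cluster near 17 kb held 39 and 35, and 37 and 45 (0.49, -0.17 to 1.16), and a site 20.9 kb in held 26 and 28. Their ratios all had intervals that included the median gene.

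Nfkbia has no other coding gene within 20 kb, and yet sites flanked it on both sides. A cluster at -6.5 and -6.6 kb held 22 and 19, and 27 and 22, fragments, at log2 ratios of -0.0029 and -0.09. Beyond the far end of the gene, 18.7 kb from the start, 19 and 20 fragments gave 0.28 (-0.70 to 1.27). Tnfaip3, also without a coding neighbour in its window, had the fewest summits, 5 and 5. Apart from the cluster at its start it held 17 and 10 fragments 5.8 kb into the gene (-0.56, -1.85 to 0.65). Rel had 17 and 12, and 18 and 16, fragments at 12.3 and 12.2 kb into the gene. Listed in shHMGB1 alone were 2 summits of 14 fragments each, 16.79 and 16.57 kb into Rel. Relb had 22 and 16 at 10.2 kb.

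Other windows were shared with neighbours. The highest summits 24.9 kb from the reference point of Relb, 61 and 64 fragments (0.28, -0.25 to 0.81), lie at the end of Clasrp. Those 24.7 kb from Nfkbib, 47 and 58 (0.51, -0.07 to 1.10), lie at Mrps12 and Sars2, and those 26.1 kb from Rela, 44 and 29 (-0.39, -1.12 to 0.32), at Sipa1 and Pcnx3. Around Nfkbie 9 matched summits lay 16.9 to 18.7 kb from the start, of which 7 were within 1 kb of the end of the chaperone gene Hsp90ab1 in both libraries.

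Over the 106 matched pairs of all windows, 5 were over 1.5-fold higher in shHMGB1, beside 7.73% of matched summits near coding genes, and 11 were over 1.5-fold lower, beside 13.3%. Besides those at the starts of Nfkbia and Rela, the higher ones lay at -6.1 kb from Nfkbia (13 and 17 fragments), 40.6 kb from the start of Rel (18 and 26), and 16.9 kb from that of Nfkbie (12 and 16). Of the 44 matched pairs within 1 kb of the reference points 2 were higher and 5 lower, with no share for all coding genes given here. The lower ones lay at Relb, Nfkb2, Nfkbia, Nfkb1 (24 and 13 fragments) and Nfkbie (16 and 8). Among all 106, 3 intervals excluded the median gene: the Nfkbia start above it and 2 below it. One of the latter was a site of 27 and 10 fragments (-1.22, -2.44 to -0.13), at position -13.7 kb from the start of Nfkbib and within Sirt2. The other held 45 and 22 (-0.82, -1.63 to -0.06), 23.7 kb from the first start of Nfkb2 and at the ends of Psd and Fbxl15. No share of such intervals over all matched summits is given here, and some of 106 intervals can exclude the median gene by counting error alone.

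The number of summits differed most at Nfkb2. Its window listed 41 summits in shCTRL and 19 in shHMGB1, and the rest of the 500 kb on either side listed 194 and 131. For Rela the window had 24 and 19 and the surroundings 463 and 292. In other windows the counts did not always go the way of their surroundings. Nfkbia had 15 and 11 in the window and 51 and 59 around it, and Rel had 16 and 19 in the window and 61 and 50 around it. Tnfaip3 had 5 and 5 in the window and 39 and 38 around it. Of the 26 shCTRL summits at Nfkb2 without a counterpart the highest held 19 fragments. The part of regional differences in the window counts was not tested.

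A counterpart in the other library was listed for 106 of the 185 shCTRL summits, or 57.3% (exact Clopper-Pearson 95% interval 49.8 to 64.5), beside 58.3% for all summits within 20 kb of a coding gene. For shHMGB1 it was 106 of 142, or 74.6% (66.7 to 81.6), beside 68.4%. Both intervals held the share of coding genes in general. Near the reference points the shares were 74.6% (61.6 to 85.0) and 88.0% (75.7 to 95.5), beside 68.9% and 79.0% for all summits within 1 kb of the first RefSeq start of a coding gene. Summits without a counterpart were low, with medians of 14 and 10 fragments against 24 and 19 for the others. The highest in shCTRL, 32 fragments 0.93 kb into Relb, lay inside a peak of shHMGB1, as did 26 of the 79. In shHMGB1 the highest held 23, and 10 of the 36 lay inside a shCTRL peak.

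Nucleosome-free regions, listed where the mean nucleosome occupancy was under 10%, were more numerous in shCTRL, as they were near coding genes in general (13841 and 12499). A further deposited value, read from the layout as the lowest upper bound of occupancy, stayed under 0.25 in all listed regions. The expected pileup was lower in shHMGB1 (1.68 against 2.79), and its part in which regions were listed was not tested. The windows held 22 of them in shCTRL, covering 4178 bp, and 12 in shHMGB1, covering 1753 bp. In the windows their mean occupancy was 5.69% and 5.03%, close to the 5.86% and 5.42% of all listed regions. Of the 22, 8 overlapped a shHMGB1 region, or 36.4%, beside 41.2% for all such regions near coding genes, and of the 12, 8 did, or 66.7%, beside 45.4%.

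All 7 genes with a RefSeq start had such a region centred within 1 kb of it in shCTRL, and 4 of them (Rel, Nfkb2, Nfkbia and Nfkbib) also in shHMGB1. Among coding genes 19.1% had one in both libraries, 9.66% in shCTRL alone and 7.07% in shHMGB1 alone. At Rel a region from -18 to 277 bp relative to the start in shCTRL, with 1.77 insertions per bp, faced one from 22 to 294 bp after it in shHMGB1, with 1.69. At Nfkbia a region from -307 to -79, with 0.76 insertions per bp, faced one from -262 to -78, with 0.89. These regions do not include the consensus match.

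Rela, Nfkbie and Tnfaip3 had a region at the start in shCTRL alone. At Tnfaip3 it ran from 20 to 116 bp after the start, at an occupancy of 2.36%, and another ran from -185 to -126. In Rela the region at the start covered 128 bp at 4.95%, and all 4 regions of the Rela window, Sipa1 included, were listed in shCTRL alone. Nfkb2 had a region of 241 bp over its first start, from -204 to 36, at 1.89% in shCTRL, which had no overlapping region in shHMGB1. It spans the printed consensus run. The summit pileups there were those given above, 59 and 49 and 50 and 54. Insertion densities are not scaled between the libraries. Nfkb1 had a single region, 591 bp long, in shCTRL, and Relb had none in shCTRL and 1 in shHMGB1, at Clasrp.

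The other genes of the pathway, a list of 30 receptors, adaptors, kinases, ubiquitin enzymes and atypical inhibitors, were open as well. Of these, 29 had an end summit in both libraries and Tnip1, an adaptor that works with the Tnfaip3 product, had none in either. Of the 29 with a matched end summit 0 were over 1.5-fold higher and 2 were over 1.5-fold lower, beside the 4.59% and 9.64% of coding genes. The median was 0.02, with a range from -1.19 to 0.55. Tnfrsf1a, the gene of a receptor for tumour necrosis factor, held 29 (19.4 to 41.6) and 11 (5.5 to 19.7) fragments, at -1.19 (-2.34 to -0.15), and relative to genes of its height at -0.94 (-2.09 to 0.10). Traf3, an adaptor that restrains the non-canonical pathway, held 18 and 8 (-0.96, -2.37 to 0.31). Between the highest end summits of each library, matched or not, both were within 1.5-fold, with 29 and 18 fragments at Tnfrsf1a (-0.47) and 18 and 11 at Traf3 (-0.49). Rnf31, the gene of a subunit of the linear ubiquitin ligase, was the 1 list gene whose interval lay above the median gene (72 and 90, 0.53, 0.07 to 1.00), under 1.5-fold. Relative to genes of its height Rnf31 stood at 0.39, with an interval that included 0 (-0.07 to 0.86). Traf3 and Rnf31 are named after their values were seen. The kinase genes Chuk (51 and 58), Ikbkb (34 and 20) and Map3k14 (66 and 56) and the regulatory subunit gene Ikbkg (69 and 62), which act on the inhibitors and are named for that role after their values were seen, were within 1.5-fold. Among the 26 list genes with a promoter entry 8 had the consensus motif, again beside 5.53% of coding genes.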

How the data were processed

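The deposited peak and nucleosome-free lists of both libraries were used. The submitters' processing notes name Trimmomatic 0.32, BWA 0.7.5-r404, SAMtools, bedtools, MACS2 and the build mm10, with no role or order. For settings, Tn5 shifting and the nucleosome-free caller: not given in the sources used here. Each deposited peak score is the whole part of 10 times the deposited −log10 q. Fold values, a ratio deposited for each summit, equal (pileup + 1) over (expected pileup + 1). From them all 180632 and 156812 summits gave whole pileups within 0.001, and a Poisson tail gave the deposited −log10 p within 0.000126 at the 179830 and 155641 summits with −log10 p under 200. In the deposited nucleosome-free lists, columns read from their layout as fractions of occupancy and as signal (insertion density) carry no header.

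Groups came from the silencing label. Gene ends and promoters came from RefSeq tables of GRCm38.p6. Where a row gave no summit (194 and 155 rows) the middle of the peak was used. Intervals are exact Poisson, Clopper-Pearson or conditional binomial at 95%. They do not hold the spread between cultures, and without molecular identifiers some fragments may be copies. The genes, the pathway list, the markers, the tests and the rule for named genes were chosen with earlier results of these data known. The rule named all 9 members, Hmgb1, pathway genes past 1.5-fold whose interval excluded the median gene or open in 1 library, and neighbours within 20 kb. Recovery, matching and intervals were tested on simulated data. The simulated counts were independent Poisson draws at fixed sites, so that test does not cover the choice of the highest summit or copied fragments. Python 3.11.15, scipy 1.17.1 and pandas 2.3.3 were used. Alternatives covered the scale, the matching distance, the window and the peak threshold.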

Additional observations from a re-analysis of the deposited data

How the results depend on the processing

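The median ratio of the members and the count over 1.5-fold higher (Nfkbia and Rela) or lower (0) held with ratios relative to genes of the same height, with matching within 50 or 300 bp and with the whole gene and 1 kb around it. They also held in the alternatives added after seeing the data, at RefSeq starts and relative to summits within 500 kb. Relative to the ratio of expected pileups the median was 0.47, all 8 values lay above 0, and Nfkb1 was also over 1.5-fold higher: directions at Rel, Relb, Nfkbie and Tnfaip3 depend on the scale. With the highest end summit of each library, matched or not, 1 member was higher (Nfkbia) and 1 lower (Nfkb2, -0.61), the latter between different sites at the far end of the gene (16 and 9 fragments) and not at its start (59 and 54). The value of Rela, 0.22 in that setting, was also between different sites, while its start held 20 and 28 fragments. Of the pathway list that setting, added after seeing the data, gave 0 higher and 1 lower (Tnip2, -0.67), in place of 0 and 2. Of 62 alternative values of single members 60 stayed inside the interval of the main value.

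Summit counts followed the window and threshold. The genes alone held 67 and 58, and the genes with 5 kb around them held 114 and 95. Summits with −log10 q of at least 5 were 113 and 104. At 10 or more they were 67 and 66. Shares with a counterpart were then 76.1% and 87.5% at 5, and 91.0% and 92.4% at 10. The genes alone held 11 and 5 nucleosome-free regions. No paired analysis was possible because each group had 1 library. Low pileups limit what can be seen: at 20 and 28 fragments a log2 ratio of 0.69 was not separable from 0.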
